A study of Mus musculus with 18 samples.

Results

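Interferon-stimulated genes are the genes that cells switch on when interferons reach their surface receptors. In this RNA-seq study of mouse pancreatic ductal adenocarcinoma lines, 39 of them were taken by symbol from a list that fixes their names, out of 24527 rows in the count table. That list was chosen with earlier results of these data known, so the comparisons of its members with all genes below are descriptive. A low-count filter, which asks for enough counts in at least 2 libraries, kept 34 of the 39 and 13827 rows in all. The 5 below it were Oas1g, Ifit3, Mx1, Mx2 and Ifi44, so every count of tests below covers 34 members and not the whole list. A gene with few counts can pass this filter through the treatment where it is higher.

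The lines were PD454, PD7591 and PD883. Treatment lasted 48 h and was the vehicle DMSO, the calcium ionophore ionomycin at 2.5 µM, or the cytokine TGFb at 10 ng/ml. Every line had 2 libraries for a treatment, which made 9 groups and 18 libraries. All groups were grown in the same defined medium with dexamethasone, cholera toxin, nicotinamide, insulin-transferrin-selenium, bovine pituitary extract, Nu-serum, a thyroid hormone, soybean trypsin inhibitor and antibiotics, and the lines have a mixed strain background. No interferon is named among the treatments. The labels do not say that the 2 libraries of a group came from separate cultures, so p-values measure the spread between libraries, which may be technical. Over 3 lines they also take in differences of the treatment effect between the lines. Differences in level between the lines are removed there by a line term.

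As background, type I interferons bind the receptor pair Ifnar1 and Ifnar2, and the kinases Jak1 and Tyk2 then phosphorylate transcription factors, Stat2 among them. Stat2 and Irf9 act in the complex ISGF3, which binds an element called ISRE in the promoters of its targets. Type II interferon acts through a second kind of element, called GAS. Many products of these genes sense viral RNA, cut it, or block its translation, while others, such as the guanylate-binding proteins, act against microbes inside the cell. In tumour cells a low level of these genes can also be present without added interferon.

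The letters of these elements were looked for in the promoters, to show which sequences the genes share that their names do not fix. RefSeq promoters of build GRCm38.p6 were found for 31 of the 39 members, and the 250 bases before the start were searched on both strands. The ISRE-like motif, GAAA followed by any 2 bases and GAAA again, was found in 14 of the 31 members, or 45.2%, counting a gene when any of its starts had a match. Counted in the same way it was found in 3.46% of all 27025 genes with a promoter entry, and it was in 2.98% of the 32851 promoters, since a gene can have more than 1 start. The GAS-like motif TTCNNNGAA was found in 7 of the 31, or 22.6%, against 8.13% of all genes and 7.02% of all promoters. Matches of a motif may overlap each other, and a match is a description of letters, not a binding site. Below are the bases just before the start of 6 members whose values the results turn on, each 5′ to 3′ on the gene's strand, with matches to either motif in capitals.

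Isg15: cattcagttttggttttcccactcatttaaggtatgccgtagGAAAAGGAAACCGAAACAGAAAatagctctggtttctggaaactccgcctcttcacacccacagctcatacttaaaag
Oas1a: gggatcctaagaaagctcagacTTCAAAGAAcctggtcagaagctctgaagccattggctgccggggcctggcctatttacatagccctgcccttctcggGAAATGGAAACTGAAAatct
Oas3: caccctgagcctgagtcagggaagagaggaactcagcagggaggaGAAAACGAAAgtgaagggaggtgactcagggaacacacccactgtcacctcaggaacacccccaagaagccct
Gbp7: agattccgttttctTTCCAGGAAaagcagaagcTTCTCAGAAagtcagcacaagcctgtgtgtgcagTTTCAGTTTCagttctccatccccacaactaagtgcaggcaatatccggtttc
Irf1: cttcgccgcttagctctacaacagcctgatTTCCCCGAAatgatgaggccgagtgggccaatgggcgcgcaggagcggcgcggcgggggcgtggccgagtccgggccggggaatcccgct
Oasl2: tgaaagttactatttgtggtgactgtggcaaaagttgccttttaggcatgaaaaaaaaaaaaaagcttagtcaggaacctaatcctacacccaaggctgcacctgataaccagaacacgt

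The Isg15 stretch lies at chr4:156200819-156200938 on the minus strand and holds 3 overlapping ISRE-like matches, the first 78 bases before the start. Oas1a, at chr5:120907526-120907645 on the minus strand, has 2 overlapping ISRE-like matches from 20 bases before the start, and a GAS-like match 98 bases before it. The Oas3 stretch, at chr5:120777662-120777779 on the minus strand, has 1 ISRE-like match 75 bases before the start. Gbp7, at chr3:142530216-142530335 on the plus strand, carries 1 ISRE-like match on the opposite strand and 2 GAS-like matches. Irf1, at chr11:53769894-53770013 on the plus strand, has a GAS-like match 90 bases before its first start. The Oasl2 stretch, at chr5:114896814-114896933 on the plus strand, matches neither motif. Of the 12 tested members with the ISRE-like motif, 2 rose and 3 fell with ionomycin, and none rose and 7 fell with TGFb. Of the 16 tested members that had a promoter entry and no such match, 2 rose and 5 fell with ionomycin, and 1 rose and 7 fell with TGFb. Over all tested genes 33.3% were called with ionomycin and 50.7% with TGFb. Missing promoter entries were those of Dhx58, Usp18, Oas2, Mx1, Mx2, Parp9, Parp14 and Rtp4.

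The members were expressed at very different levels without added interferon. Levels are given as CPM, the count scaled to a common library size, and are compared between genes only after division by the length of the longest annotated transcript. On that scale Bst2, a membrane protein that tethers virus particles, was highest with a mean of 36.6 CPM per kilobase over the 18 libraries. It was followed by the transcription factor Irf1 with 21.7, the ubiquitin ligase Trim25 with 19.0, the double-stranded RNA kinase Eif2ak2 with 16.1 and Stat2 with 11.99 CPM per kilobase. At the other end were Mx1 with 0.0102 and Ifi44 with 0.0201 CPM per kilobase, and Mx1 had 15 counts in all 18 libraries together. The classical interferon-stimulated genes Isg15, Usp18, Oas2, Ifit1 and Rsad2 each had 196 or fewer counts in all. Together the 39 members took 0.0370% to 0.0828% of the counts of a library.

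Libraries held 17591005 to 37894692 counts. Short transcripts weighed more in 4 of them (DMSO PD454 14, DMSO PD883 8, TGFb PD454 18 and TGFb PD883 12) than in the others. Across 13494 genes, which are not independent replicates, log2 transcript length was correlated with how far each library lay from the average of the 18, and r was -0.203 to -0.0960 in these 4 and -0.0539 to 0.134 in the other 14. Without them the members called with ionomycin were 3 higher and 11 lower, in place of the 4 and 10 below, and with TGFb 1 higher and 21 lower, in place of 1 and 18. Of all tested genes, 27.0% were then called with ionomycin and 46.6% with TGFb, in place of 33.3% and 50.7%.

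Interferon ligands had few counts or none. The 10 listed ligand genes had 23 counts in all 18 libraries, of which Ifne had 15, Ifnk 4, Ifnb1 3 and Ifna5 1. The other 6, Ifna1, Ifna2, Ifna4, Ifng, Ifnl2 and Ifnl3, were at 0 in every library. A count of 0 allows up to 0.0757 to 0.174 CPM, depending on the library, for counting error only, so a low level was not detectable at this depth.

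With ionomycin, 4 of the 34 tested members rose and 10 fell against DMSO over the 3 lines. Of all tested genes, 17.2% rose and 16.1% fell, and 33.3% were called in either direction. The median log2 fold change of the members was -0.28, beside -0.03 over all genes tested. Those that rose were Stat2, Trim25, Oasl1 and Isg15, and those that fell were Irf1, Ifit2, Samd9l, Gbp2, Gbp3, Irgm1, Parp9, Parp14, Dtx3l and Xaf1. Genes were called at a Benjamini-Hochberg adjusted p under 0.05 in edgeR's quasi-likelihood test, taken over all tested genes. In this comparison the libraries of the 2 treatments did not overlap within any of the 3 lines for 3 rising members and 10 falling ones, where 12.2% and 10.4% of all tested genes met the same condition.

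Most of the falling members were GTPases or belonged to the ADP-ribosylation group, beside 1 transcription factor. Irf1, an activator of both interferon and guanylate-binding protein genes, had 28.9 and 34.5 CPM in the DMSO libraries of PD454, 67.0 and 72.7 in PD7591, and 50.7 and 65.2 in PD883. With ionomycin it had 20.4 and 18.7, 26.9 and 21.9, and 27.9 and 29.2 CPM in the same order of lines. Both ionomycin libraries lay below both DMSO libraries in every line. Irf1 fell by 1.09 ± 0.16 (SE) on the log2 scale (edgeR adjusted p = 4.39e-05).

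Guanylate-binding proteins (Gbp2, Gbp3, Gbp7) and the immunity-related GTPases (Igtp, Irgm1) are GTPases that act on the membranes around intracellular microbes. Of these 5, 3 fell with ionomycin and none rose, where 16.1% of all tested genes fell and 17.2% rose. Irgm1 had 18.5 to 27.3 CPM in the 6 DMSO libraries (median 20.8) and 8.42 to 11.2 CPM (median 8.76) with ionomycin. Every ionomycin library lay below every DMSO library, whatever the line, and its log2 fold change was -1.29 ± 0.22 (edgeR adjusted p = 0.000237). Gbp2 had 1.05 to 8.90 CPM with DMSO (median 3.33) and 0.465 to 2.53 CPM (median 0.617) with ionomycin, a log2 fold change of -1.80 ± 0.34 (edgeR adjusted p = 0.000509). Its ranges overlapped over the lines but not within any of them. Gbp3 had 92 counts in the DMSO libraries and 24 with ionomycin, a log2 fold change of -1.79 ± 0.38 (edgeR adjusted p = 0.00137). Gbp7 and Igtp did not pass, with log2 fold changes of -0.81 ± 0.34 and -0.66 ± 0.34. Gbp2, Gbp3 and Gbp7 lie between 142530342 and 142638008 on chromosome 3 (GRCm38) and resemble each other in sequence, so reads may have been split between them.

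Parp9, Parp12 and Parp14 are ADP-ribosyltransferase family members, and Dtx3l is a ubiquitin ligase that works as a partner of Parp9. Of these 4, 3 fell with ionomycin, where 16.1% of all tested genes fell. Parp14 had 4.63 to 32.7 CPM with DMSO (median 24.0) and 3.74 to 14.5 CPM (median 4.46) with ionomycin, a log2 fold change of -1.58 ± 0.33 (edgeR adjusted p = 0.00143). Dtx3l went from a median of 26.9 CPM (13.4 to 48.0) to one of 12.6 CPM (8.84 to 21.99) and fell by 1.04 ± 0.20 on the log2 scale (edgeR adjusted p = 0.000559). Parp9 had 10.1 to 29.0 CPM with DMSO and 5.70 to 17.6 CPM with ionomycin, and fell by 0.98 ± 0.19 (edgeR adjusted p = 0.000848). Parp12 had a log2 fold change of -0.26 ± 0.22 and did not pass. For the 3 that fell, the ionomycin libraries were below the DMSO libraries in each line. Parp9 and Dtx3l lie on opposite strands of chromosome 16 and share the stretch from 35938470 to 35939151 (GRCm38), and no source used here gives the strand setting of the counting, so reads from that stretch cannot be told apart.

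Further falls were seen in single members of other groups. Ifit2, an RNA-binding tetratricopeptide protein, had 10.8 and 10.99 CPM in the DMSO libraries of PD7591 and 5.17 and 4.95 with ionomycin. In PD454 it had 1.15 and 1.86 against 0.231 and 0.581 CPM, and in PD883 0.684 and 1.05 against 0.348 and 0.293 CPM. The level differed widely between the lines, and the libraries of the 2 treatments were apart in each. Ifit2 fell by 1.36 ± 0.28 on the log2 scale (edgeR adjusted p = 0.00134). Xaf1, a pro-apoptotic protein that binds the inhibitor XIAP, went from 1.04 to 3.49 CPM (median 2.47) to 0.293 to 1.94 CPM (median 0.695) and fell by 1.29 ± 0.33 (edgeR adjusted p = 0.0065). Samd9l, an antiviral and growth-restraining protein, had 32.0 to 144 CPM with DMSO and 12.4 to 91.7 CPM with ionomycin, and fell by 0.95 ± 0.25 (edgeR adjusted p = 0.00741). Both were apart within each line and overlapped over the lines.

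The members that rose with ionomycin belong to the signalling factors, the ISG15 system and the 2-5A synthetase family. Stat2, a transcription factor of ISGF3, had 51.6 and 55.2 CPM in the DMSO libraries of PD454, 42.1 and 44.0 in PD7591, and 71.2 and 48.8 in PD883. With ionomycin it had 88.6 and 90.2, 48.1 and 54.6, and 104 and 79.1 CPM. All 3 lines were higher with ionomycin, PD7591 by the least. The log2 fold change of Stat2 was 0.53 ± 0.12 (edgeR adjusted p = 0.00189). Trim25, a ubiquitin ligase that activates the RNA sensor encoded by Ddx58, had 97.6 to 134 CPM with DMSO (median 111) and 119 to 199 CPM (median 139) with ionomycin, a log2 fold change of 0.39 ± 0.10 (edgeR adjusted p = 0.00443). Oasl1, which lacks 2-5A synthetase activity, had 3.14 to 15.4 CPM with DMSO (median 6.54) and 5.37 to 25.4 CPM (median 15.8) with ionomycin, a log2 fold change of 0.96 ± 0.21 (edgeR adjusted p = 0.00176). The libraries of these 3 genes did not overlap within any line.

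Isg15, a ubiquitin-like modifier that is joined to other proteins, rested on few counts. It had 0.549 and 0.451 CPM in the DMSO libraries of PD454, 0 and 0.611 in PD7591, and 0.171 and 0.318 in PD883. With ionomycin it had 1.25 and 1.28, 0.564 and 0.753, and 0.596 and 0.880 CPM. The groups were apart in PD454 and PD883 and overlapped in PD7591. The log2 fold change of Isg15 was 1.31 ± 0.45 (edgeR adjusted p = 0.0308). This call was lost without any of 5 libraries, with adjusted p of 0.0528 without DMSO PD454 14, 0.0543 without DMSO PD883 7, 0.0677 without ionomycin PD454 15, 0.0661 without ionomycin PD454 16, and 0.0688 without ionomycin PD883 10. It was also lost without the 4 libraries rich in short transcripts (0.0923).

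Leaving out a whole line also ended calls with ionomycin. Without PD454 the adjusted p of Stat2 was 0.0508, of Trim25 0.105 and of Isg15 0.136, and 1 of the 34 members was still called higher. Of all tested genes, 23.9% were then called in either direction, in place of 33.3%. With the 2 libraries of each group summed to 1 sample, the calls of Oasl1 (0.0518), Gbp3 (0.0521), Trim25 (0.0608), Samd9l (0.0925), Isg15 (0.0945) and Xaf1 (0.0958) were lost as well (edgeR adjusted p in parentheses). Without PD883 that of Samd9l was 0.0888 and of Isg15 0.121. Over the 3 lines the other 20 members did not pass. An unadjusted p under 0.05 was seen in 18 of the 34, and a negative fold change in 19 of the 34. The shares of all tested genes for either were not counted.

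**Figure D1:**
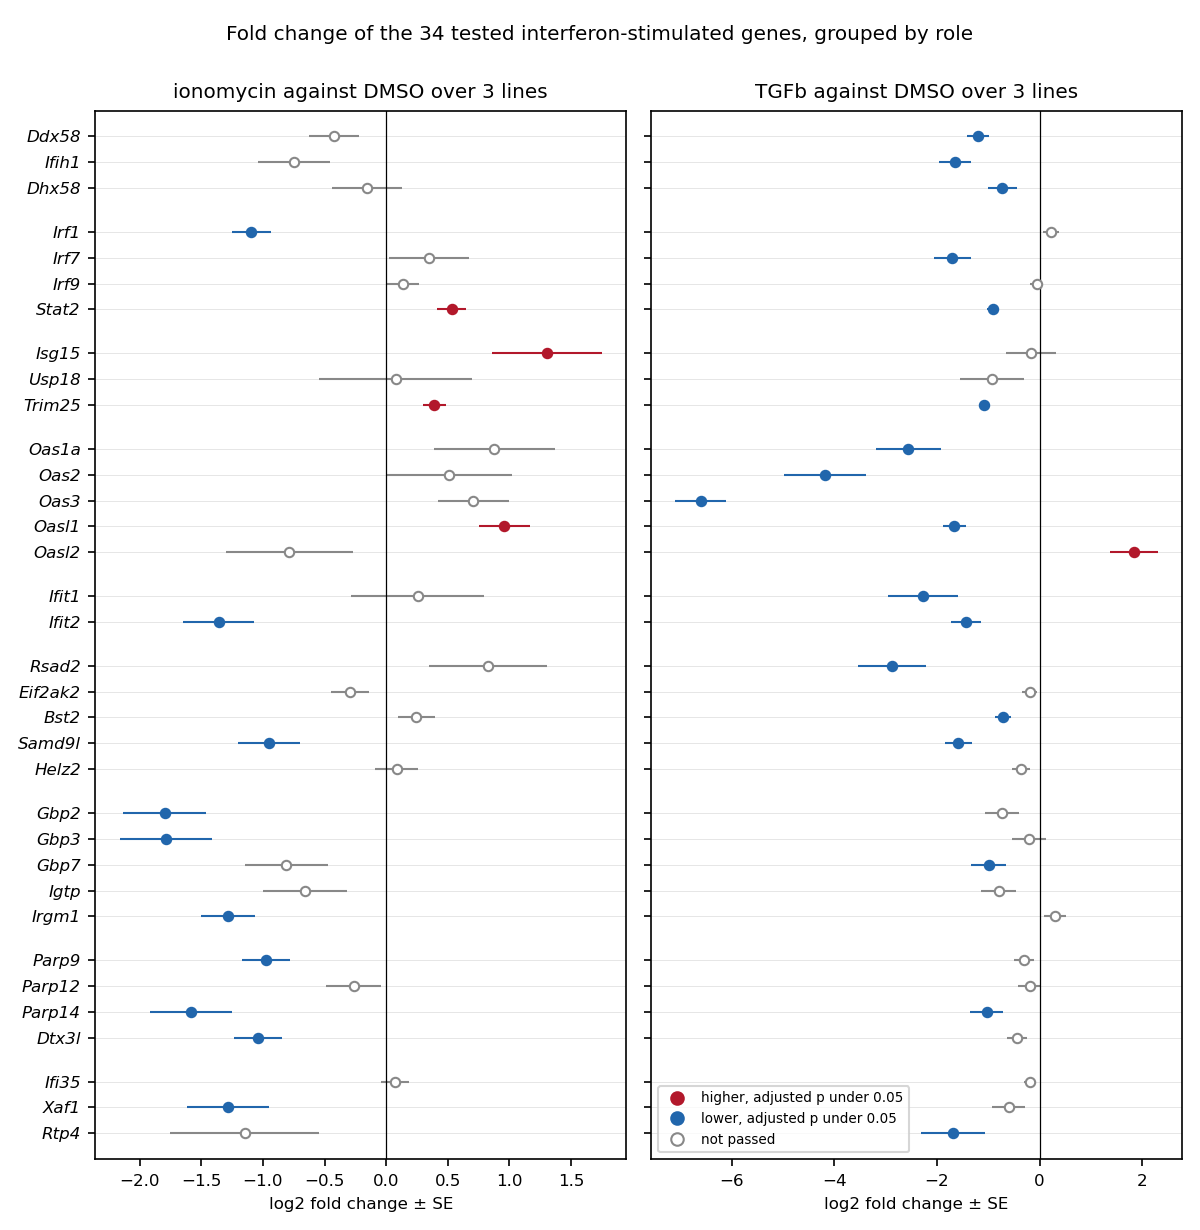
Log2 fold change with its standard error for the 34 tested interferon-stimulated genes, ordered by role, with ionomycin against DMSO on the left and TGFb against DMSO on the right (horizontal axes, different scales). Filled points passed an adjusted p of 0.05, red for higher and blue for lower. With TGFb, 18 members fell and only Oasl2 rose. With ionomycin, 4 rose and 10 fell.

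With TGFb, 18 of the 34 tested members fell and 1 rose against DMSO over the 3 lines, where 26.5% of all tested genes fell, 24.3% rose and 50.7% were called in either direction. The median log2 fold change was -0.85 over the members and 0.00 (-0.0022) over all genes tested. Those that fell were Ddx58, Ifih1, Dhx58, Irf7, Stat2, Trim25, Oas1a, Oas2, Oas3, Oasl1, Ifit1, Ifit2, Rsad2, Bst2, Samd9l, Gbp7, Parp14 and Rtp4, and Oasl2 rose. Oas1a, Oas2, Ifit1, Rsad2 and Rtp4 had few counts with TGFb and may have passed the count filter through libraries of other treatments. Among such genes the filter favours falls over rises. The TGFb and DMSO libraries did not overlap within any line for 13 falling members and 1 rising one, where 17.5% and 15.7% of all tested genes met the same condition. The DMSO libraries are the same ones that ionomycin was compared with. Without PD7591, 3 members were called higher with TGFb in place of 1, while 37.5% of all tested genes were called in either direction in place of 50.7%.

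All 3 sensors of viral RNA fell with TGFb, too few genes to read against the 26.5% of all tested genes that fell. Ifih1, which encodes the sensor MDA5 of long double-stranded RNA, had 5.74 to 12.7 CPM with DMSO (median 8.39) and 1.82 to 5.44 CPM (median 2.14) with TGFb. No TGFb library reached the lowest DMSO library. Its log2 fold change was -1.65 ± 0.31 (edgeR adjusted p = 0.000187). Ddx58, which encodes RIG-I, the sensor of RNA ends, had 13.6 to 33.0 CPM with DMSO (median 22.1) and 5.18 to 14.9 CPM (median 9.46) with TGFb, and fell by 1.20 ± 0.21 (edgeR adjusted p = 8.51e-05). Dhx58, which encodes the regulator LGP2, had 1.18 to 1.87 CPM with DMSO and 0.325 to 1.43 CPM with TGFb, and fell by 0.73 ± 0.29 (edgeR adjusted p = 0.0414). The call of Dhx58 was lost without any of 12 libraries and without each line, with adjusted p up to 0.107 without TGFb PD7591 6 and up to 0.139 without PD454. The libraries concerned were DMSO PD454 13 and 14, DMSO PD7591 1, DMSO PD883 7 and 8, ionomycin PD454 15, ionomycin PD7591 3 and 4, TGFb PD454 17 and 18, TGFb PD7591 6 and TGFb PD883 11. With ionomycin these 3 sensors did not pass over the 3 lines, with log2 fold changes of -0.75 for Ifih1, -0.42 for Ddx58 and -0.16 for Dhx58. Within lines, Ifih1 was called lower with ionomycin in PD454 and PD883, and Ddx58 in PD883. None of the 3 was called in PD7591.

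The 2-5A synthetase family makes short chains of linked adenylates, which act as a signal in antiviral defence, although Oasl1 lacks this activity. All 5 tested members passed with TGFb, 4 lower and 1 higher, where 50.7% of all tested genes passed. Oas1a and Oas2 had few counts with TGFb and may have passed the count filter through libraries of other treatments. Oas3 had 9.05 and 6.97 CPM in the DMSO libraries of PD454, 1.17 and 2.01 in PD7591, and 26.2 and 16.7 in PD883. With TGFb it had 0.264 and 0.185 CPM in PD454, 0.106 and 0 in PD7591, and 0 and 0.0505 in PD883. The 6 TGFb libraries together held 13 counts of it, against 1292 in the DMSO libraries. That is a ratio of 105 with a 95% interval of 61.4 to 198 for counting error only. In each line the TGFb level was near 0, although the DMSO level differed 13.5-fold between PD883 and PD7591. The log2 fold change of Oas3 was -6.60 ± 0.49 (edgeR adjusted p = 2.73e-09).

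Oasl1 and Oasl2 went opposite ways with TGFb. Oasl1 had 14.9 and 15.4 CPM with DMSO in PD454, 6.23 and 6.85 in PD7591, and 3.14 and 4.09 in PD883. With TGFb it had 6.18 and 7.57, 1.22 and 1.69, and 0.976 and 0.833 CPM. The TGFb libraries were lower in each line, and Oasl1 fell by 1.66 ± 0.22 on the log2 scale (edgeR adjusted p = 5.02e-06). Oasl2 had 0.384 and 0.360 CPM with DMSO in PD454, 0.746 and 1.53 in PD7591, and 0.798 and 0.454 in PD883. With TGFb it had 1.32 and 1.06, 1.80 and 2.44, and 4.42 and 3.13 CPM, above the DMSO libraries in each line. The log2 fold change of Oasl2 was 1.84 ± 0.46 (edgeR adjusted p = 0.00291). Both genes lie on chromosome 5, with Oasl2 from 114896936 to 114912234 and Oasl1 from 114923240 to 114937915 (GRCm38). Oas1a, Oas2 and Oas3 lie on the same chromosome between 120730333 and 120907521.

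Oas1a and Oas2 had few counts. Oas1a had 66 counts in the DMSO libraries and 11 with TGFb, a log2 fold change of -2.56 ± 0.64 (edgeR adjusted p = 0.00256), and its call was lost without the line PD883 (adjusted p = 0.0723). Oas2 had 43 counts with DMSO and 2 with TGFb, a ratio of 22.8 with a 95% counting interval of 5.94 to 194 (edgeR adjusted p = 0.000249). Oas1g, which was not tested, had 7 counts with DMSO, 12 with ionomycin and 4 with TGFb. It is nearly identical to Oas1a, so the counts of both are uncertain. With ionomycin, Oas1a, Oas2 and Oas3 had positive log2 fold changes of 0.88, 0.51 and 0.71 that did not pass over the 3 lines. Within lines, Oas3 was called higher with ionomycin in PD454 and PD7591, while Oas1a and Oas2 were called in no line.

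**Figure D2:**
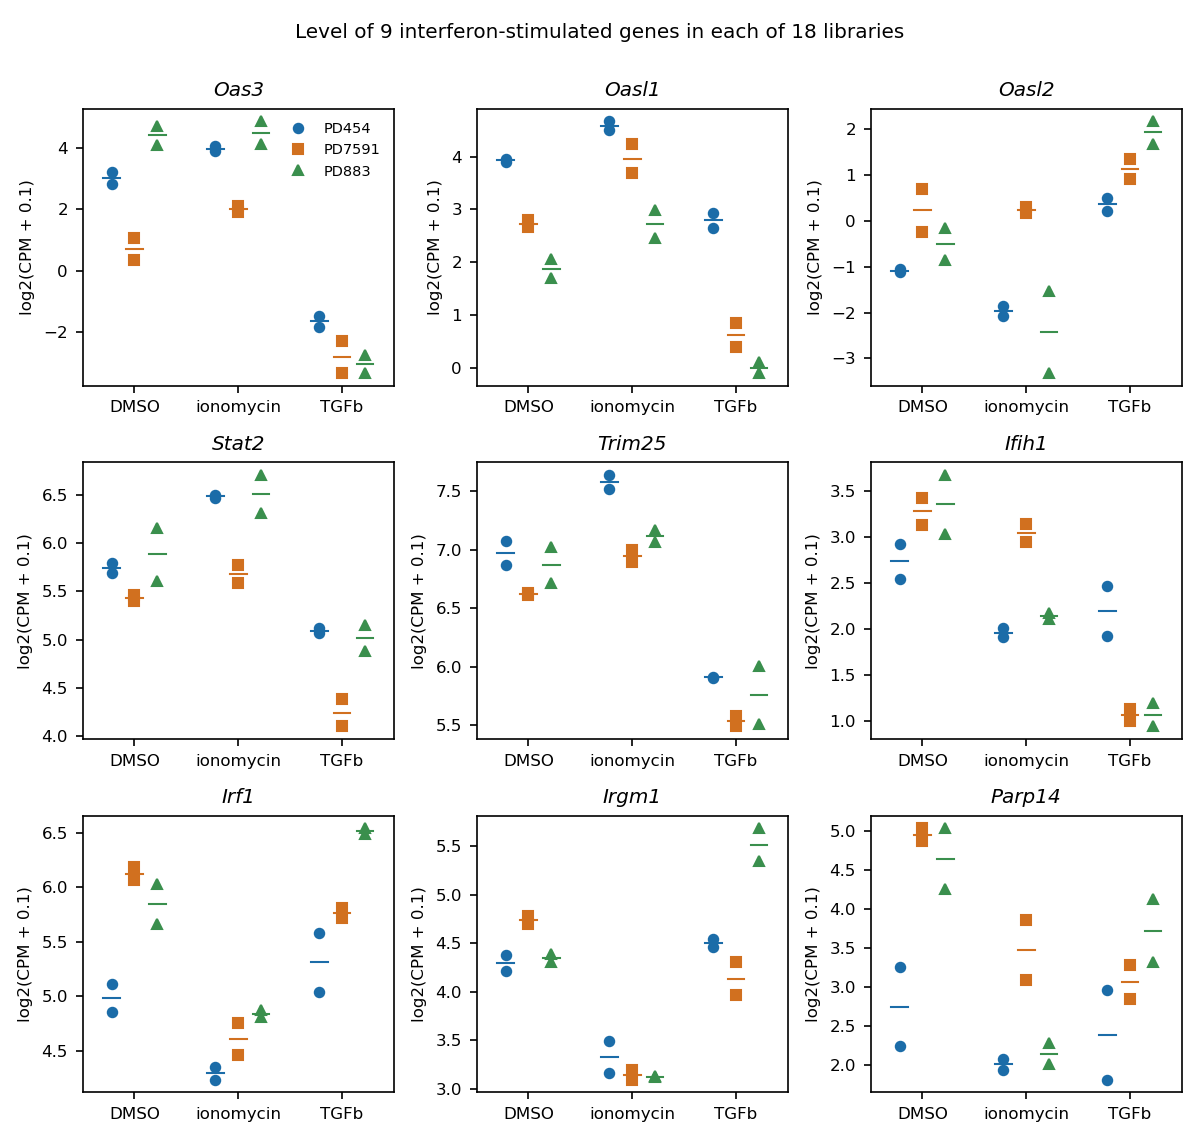
Level of 9 members in each of the 18 libraries, as log2(CPM + 0.1) on the vertical axis, by treatment and line, with a dash at the mean of each pair of libraries. Oas3 is near the floor in all 6 TGFb libraries, Oasl2 is higher with TGFb in each line, and Irgm1 and Irf1 are lower with ionomycin in each line. The TGFb effect on Irgm1 differs in sign between PD7591 and PD883.

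Other effectors of the antiviral state fell with TGFb too, most of them from low levels. Rsad2, which encodes viperin, a maker of a chain-terminating nucleotide, had 43 counts in the DMSO libraries and 6 with TGFb. Its log2 fold change was -2.88 ± 0.66 (edgeR adjusted p = 0.00136). Ifit1, which binds viral RNA caps, had 35 counts with DMSO and 8 with TGFb, a log2 fold change of -2.27 ± 0.68 (edgeR adjusted p = 0.00936). Ifit2 fell by 1.44 ± 0.29 (edgeR adjusted p = 0.000437), a call lost without PD7591 (adjusted p = 0.0504), the line where it was highest. Samd9l had 32.0 to 144 CPM with DMSO (median 51.5) and 13.4 to 28.8 CPM (median 21.6) with TGFb, with no overlap, and fell by 1.58 ± 0.26 (edgeR adjusted p = 4.8e-05). Bst2, the member with the highest level per length, had 21.3 to 36.3 CPM with DMSO (median 31.2) and 10.8 to 28.1 CPM (median 18.8) with TGFb, and fell by 0.71 ± 0.15 (edgeR adjusted p = 0.000621). Eif2ak2, with 60.7 to 90.3 CPM with DMSO and 49.6 to 78.1 CPM with TGFb, and the helicase gene Helz2 did not pass, with log2 fold changes of -0.20 ± 0.15 and -0.36 ± 0.17. Mx2, below the filter, had 39 counts with DMSO, 25 with ionomycin and 2 with TGFb, and Mx1 had 7, 7 and 1. The Mx2 ratio of DMSO to TGFb was 20.7 with a 95% counting interval of 5.35 to 177. Ifit3 had 9, 18 and 4 counts and Ifi44 7, 17 and 7 with DMSO, ionomycin and TGFb.

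Among the signalling factors, Irf7 and Stat2 fell with TGFb. Irf7, the factor that amplifies interferon production, had 0.811 to 2.85 CPM with DMSO (median 1.11) and 0.211 to 0.600 CPM (median 0.414) with TGFb, with no overlap. Its log2 fold change was -1.70 ± 0.35 (edgeR adjusted p = 0.000582). Stat2 had 33.4 and 34.8 CPM with TGFb in PD454, 17.1 and 20.8 in PD7591, and 35.5 and 29.5 in PD883, all below the DMSO values given above. It fell by 0.91 ± 0.12 (edgeR adjusted p = 3.63e-06). Irf1 and Irf9 did not pass, with log2 fold changes of 0.21 ± 0.15 and -0.06 ± 0.13.

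Trim25 had 44.9 to 64.3 CPM with TGFb (median 53.8), below all DMSO libraries, and fell by 1.08 ± 0.10 (edgeR adjusted p = 3.36e-08). Its within-line log2 fold changes were -1.06, -1.09 and -1.10 in PD454, PD7591 and PD883. Isg15 and Usp18, the protease that removes the Isg15 modifier, did not pass, with log2 fold changes of -0.17 ± 0.48 and -0.93 ± 0.62 on 49 and 33 counts with DMSO. Parp14 fell by 1.03 ± 0.32 (edgeR adjusted p = 0.0128), a call lost without PD7591 (adjusted p = 0.188) or without DMSO PD883 7 (0.05). Rtp4, a chaperone-like protein with an antiviral role, had 44 counts with DMSO and 16 with TGFb, a log2 fold change of -1.68 ± 0.62 (edgeR adjusted p = 0.0312). Its call was lost without PD454 (0.0865) and without any of 6 libraries, DMSO PD454 14 (0.0625), DMSO PD7591 2 (0.0743), DMSO PD883 7 (0.0694), TGFb PD454 17 (0.0587) and TGFb PD7591 5 and 6 (0.0744 and 0.0796). Xaf1 and Ifi35, a regulator of innate signalling with 9.93 to 21.1 CPM with DMSO and 9.71 to 20.02 CPM with TGFb, did not pass, with log2 fold changes of -0.60 ± 0.32 and -0.19 ± 0.11.

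Of the 5 GTPases, 1 fell with TGFb and none rose, where 26.5% of all tested genes fell and 24.3% rose. The called gene was Gbp7, with 1.53 to 11.8 CPM with DMSO, 1.64 to 2.89 CPM with TGFb and a log2 fold change of -0.99 ± 0.35 (edgeR adjusted p = 0.0224), and that call was lost without the line PD7591 (adjusted p = 0.461). It was also lost without DMSO PD7591 2 (0.0551), DMSO PD883 7 (0.0533), TGFb PD7591 5 (0.0729) and TGFb PD7591 6 (0.0715). Gbp2, Gbp3, Igtp and Irgm1 did not pass, with log2 fold changes of -0.73, -0.21, -0.80 and 0.30. With the libraries of each group summed, the TGFb calls of Gbp7 (edgeR adjusted p = 0.159), Dhx58 (0.16), Rtp4 (0.0921), Parp14 (0.0678) and Ifit1 (0.0653) were lost.

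Both treatments share their DMSO libraries, so no overlap of their calls was tested, and the calls are set side by side. Stat2, Trim25 and Oasl1 rose with ionomycin and fell with TGFb. Ifit2, Samd9l and Parp14 fell with both. Isg15 was called with ionomycin alone, as were Irf1, Gbp2, Gbp3, Irgm1, Parp9, Dtx3l and Xaf1, and 13 members were called with TGFb alone. Irf9, Usp18, Eif2ak2, Helz2, Igtp, Parp12 and Ifi35 passed in neither comparison. Of all tested genes, 33.3% were called with ionomycin and 50.7% with TGFb. Their shares in these combined classes were not counted, so the classes describe the members only.

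A direct test of ionomycin against TGFb gave 16 members higher with ionomycin and 7 lower. Of all tested genes, 31% and 31.9% were called in these directions, 62.9% in all. Oas1a, Oas2, Ifit1 and Rsad2, with few counts under TGFb, are among the 16. Libraries of the 2 treatments did not overlap within any line for 10 members higher with ionomycin and 4 lower, where 23.1% and 22.9% of all tested genes met this condition. Among the members higher with ionomycin, Trim25 had a log2 difference of 1.48 ± 0.10 (edgeR adjusted p = 4.04e-10) and Stat2 of 1.44 ± 0.12 (edgeR adjusted p = 7.19e-09). Oasl1 differed by 2.62 ± 0.23 (edgeR adjusted p = 1.25e-08) and Irf7 by 2.05 ± 0.35 (edgeR adjusted p = 6.14e-05). Those lower with ionomycin than with TGFb were Irf1, Oasl2, Gbp2, Gbp3, Irgm1, Parp9 and Dtx3l. Irgm1 differed by -1.59 ± 0.22 and Irf1 by -1.31 ± 0.16 (edgeR adjusted p = 6.69e-06 and 1.02e-06). Isg15, not called with TGFb against DMSO, differed by 1.48 ± 0.45 (edgeR adjusted p = 0.00859). Without PD7591 the 16 became 10, and the 7 became 4 without PD454 or without PD883. Of all tested genes, 53.6% were called without PD7591, 56.7% without PD454 and 58.0% without PD883, in place of 62.9%.

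Members were also tested within each line. With ionomycin, 3 rose and 7 fell in PD454, where 11.7% of all tested genes rose and 9.34% fell, 21% in all. In PD7591, 2 rose and 9 fell (11.2% and 7.41% of all genes, 18.6% in all), and in PD883, 2 rose and 18 fell (11.6% and 10.9%, 22.5% in all). With TGFb, 1 rose and 8 fell in PD454 (14.8% and 16.1% of all genes, 31% in all). In PD7591 none rose and 23 fell (17.7% and 20.1%, 37.8% in all), and in PD883 3 rose and 10 fell (18.4% and 20%, 38.4% in all). PD883 had the most falling members with ionomycin and PD7591 the most with TGFb, and these counts were not tested against each other. These tests rest on 2 libraries a group, and single libraries moved the counts. The 10 called members with ionomycin in PD454 became 3 without DMSO PD454 14 or ionomycin PD454 15 and 2 without ionomycin PD454 16, while the share of all genes called went from 21% to 7.10%, 8.94% and 7.94%. In PD7591 the 11 became 6 without DMSO PD7591 1, DMSO PD7591 2 or ionomycin PD7591 3 and 7 without ionomycin PD7591 4, with 7.80%, 8.599%, 11.4% and 9.38% of all genes called in that order. In PD883 the 20 became 12 without DMSO PD883 7 and 11 without ionomycin PD883 9, with 16.2% and 13.3% of all genes called. With TGFb the 9 in PD454 became 4 without DMSO PD454 14 and 5 without TGFb PD454 18, with 24.0% and 22.7% of all genes called. The 23 in PD7591 became 14 without TGFb PD7591 5, with 25.0% of all genes called. In each of these runs fewer of all genes were called as well. The runs listed are those with larger changes in the member counts, and a link between both changes was not tested.

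The sign of the effect was shared by all 3 lines in 22 members with ionomycin (6 higher, 16 lower) and in 24 with TGFb (1 higher, 23 lower), and was mixed in the other 12 and 10. Over all tested genes the sign was shared in 52.5% with ionomycin (25.0% higher, 27.4% lower) and in 63.3% with TGFb (31.0% higher, 32.3% lower).

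**Figure D3:**
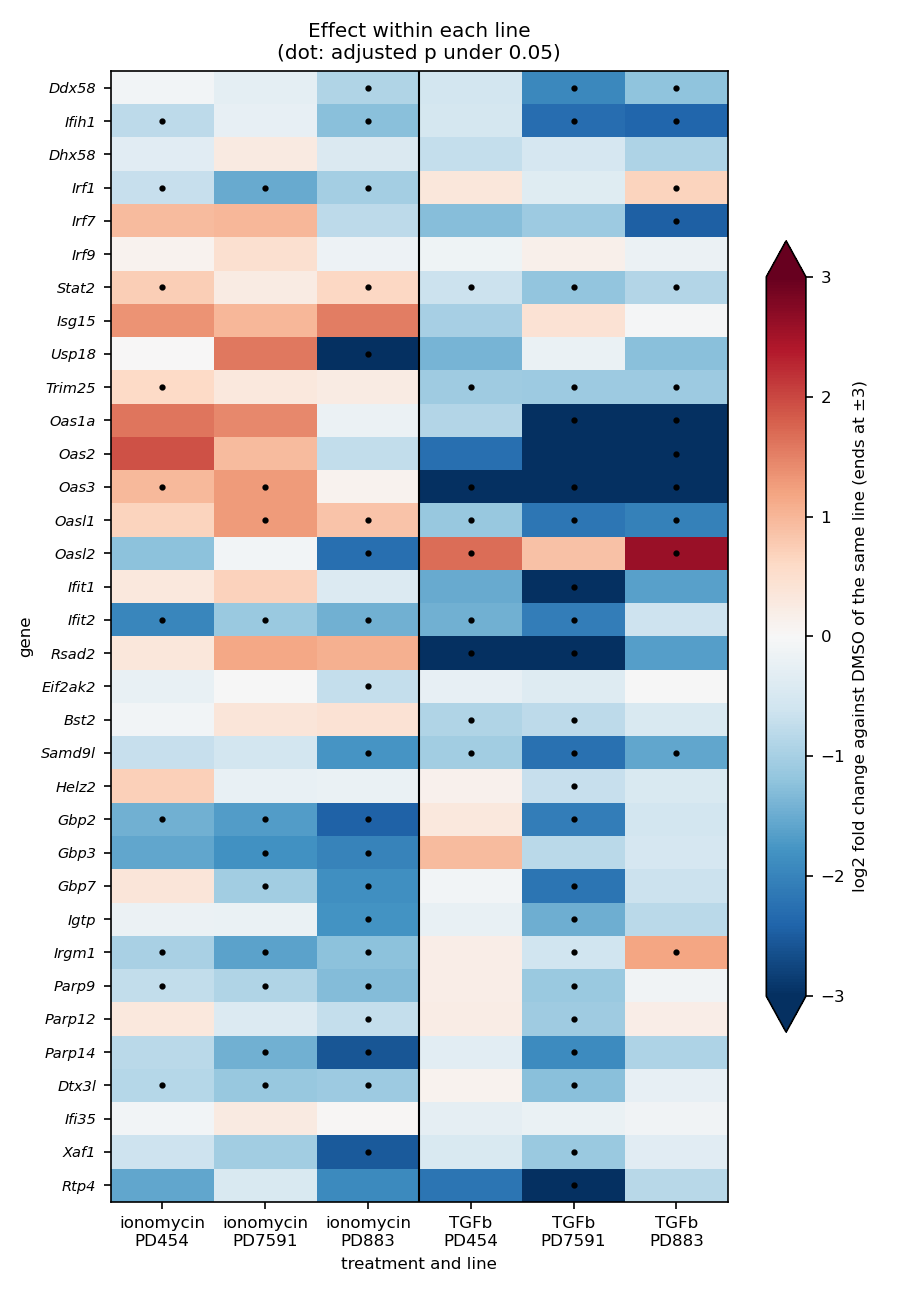
Log2 fold change against DMSO of the same line (colour, red higher and blue lower, scale ending at ±3) for the 34 tested members (rows), for ionomycin in the 3 left columns and TGFb in the 3 right ones, each in PD454, PD7591 and PD883. Dots mark an adjusted p under 0.05. PD7591 has 23 dots with TGFb, all blue, against 9 in PD454 and 13 in PD883.

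A joint test asked whether the effect was equal in the 3 lines. For ionomycin, edgeR called none of the 34 members, where 2.59% of all tested genes were called. At an unadjusted p under 0.05 there were 12, and the share of all tested genes at that level was not counted. DESeq2 called 1, where it called 9.29% of all tested genes, and 5 were called without the 4 libraries rich in short transcripts, where 10.5% of all tested genes were. For TGFb, 6 members were called, where 5.26% of all tested genes were: Irgm1, Gbp2, Ifih1, Parp9, Gbp7 and Parp12. In 5 of the 6 the log2 fold change was most negative in PD7591.

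Irgm1 had 27.3 and 25.9 CPM with DMSO and 15.5 and 19.7 with TGFb in PD7591, but 20.9 and 19.6 with DMSO and 40.5 and 51.3 with TGFb in PD883. In PD454 it had 18.5 and 20.7 CPM with DMSO and 23.2 and 21.96 with TGFb. The TGFb libraries were thus below DMSO in PD7591 and above it in PD883 and PD454. Its log2 fold changes were 0.20 ± 0.17 in PD454, -0.60 ± 0.17 in PD7591 and 1.18 ± 0.17 in PD883 (edgeR adjusted p for a difference between lines = 0.00178). Gbp2 had 6.87 and 8.90 CPM with DMSO and 2.06 and 1.69 with TGFb in PD7591, and 1.70 and 1.05 against 1.74 and 1.61 in PD454. Its log2 fold changes were 0.32 ± 0.31, -2.07 ± 0.28 and -0.56 ± 0.28 in the same order of lines (edgeR adjusted p = 0.00911). Under TGFb the Gbp2 level lay between 1.61 and 2.37 CPM in all 6 libraries, while with DMSO it ran from 1.05 to 8.90 CPM.

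Ifih1 had log2 fold changes of -0.53 ± 0.26 in PD454, -2.28 ± 0.28 in PD7591 and -2.38 ± 0.27 in PD883 (edgeR adjusted p = 0.0120). Parp9 had 0.20 ± 0.19, -1.11 ± 0.19 and -0.11 ± 0.18 (edgeR adjusted p = 0.0182), Gbp7 -0.09 ± 0.33, -2.18 ± 0.31 and -0.64 ± 0.32 (0.0262), and Parp12 0.21 ± 0.22, -1.07 ± 0.22 and 0.21 ± 0.21 (0.0272). The test of Irgm1 passed under every alternative tried, and the other 5 each lost their call without some library. Ifih1 was lost without DMSO PD454 14 (0.0682) or TGFb PD454 17 (0.0784), and Gbp2 without DMSO PD7591 2 (0.0504) or TGFb PD7591 6 (0.0541). Parp9 was lost without DMSO PD454 14 (0.054), DMSO PD7591 1 (0.0543), DMSO PD7591 2 (0.0792) or TGFb PD7591 5 (0.109). For Gbp7 the libraries were DMSO PD454 14 (0.0658), DMSO PD7591 1 (0.0662), DMSO PD7591 2 (0.103), TGFb PD454 18 (0.0667) and TGFb PD7591 5 (0.14). For Parp12 they were DMSO PD7591 1 (0.0836), DMSO PD7591 2 (0.109), ionomycin PD454 16 (0.05), TGFb PD454 18 (0.0501), TGFb PD7591 5 (0.159) and TGFb PD7591 6 (0.0707). The count of 6 became 3 without DMSO PD454 14, DMSO PD7591 1 or TGFb PD7591 5, and 2 without DMSO PD7591 2, where 2.83% to 3.29% of all tested genes were called.

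Levels of the lines were compared under the vehicle. Under DMSO, 19 of the 34 members, or 55.9%, differed between the lines, near the 47.9% of all tested genes that did. PD454 had the lowest level in 14 of the 19, PD7591 the highest in 11 and PD883 the highest in 7. Of all 6624 genes called in this test, PD454 was lowest in 30.6%, PD7591 highest in 27.5% and PD883 highest in 40.6%. The order of the lines in the members was not tested against that in all genes. Gbp2 had 1.38 CPM in PD454, 7.89 in PD7591 and 3.33 in PD883, as means of 2 libraries (edgeR adjusted p = 3.12e-05). Parp14 had 7.06, 30.9 and 25.8 CPM in the same order, and Samd9l 37.3, 123 and 51.5 CPM. Ifit2 had 1.51, 10.9 and 0.865 CPM (edgeR adjusted p = 1.45e-06), so PD7591 was far above both other lines. Oas3 had 8.01, 1.59 and 21.4 CPM (edgeR adjusted p = 9.45e-06), with PD7591 lowest. Oasl1 was the 1 member of the 19 with its highest level in PD454, at 15.1 CPM against 6.54 in PD7591 and 3.61 in PD883 (edgeR adjusted p = 4.63e-05).

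**Figure D4:**
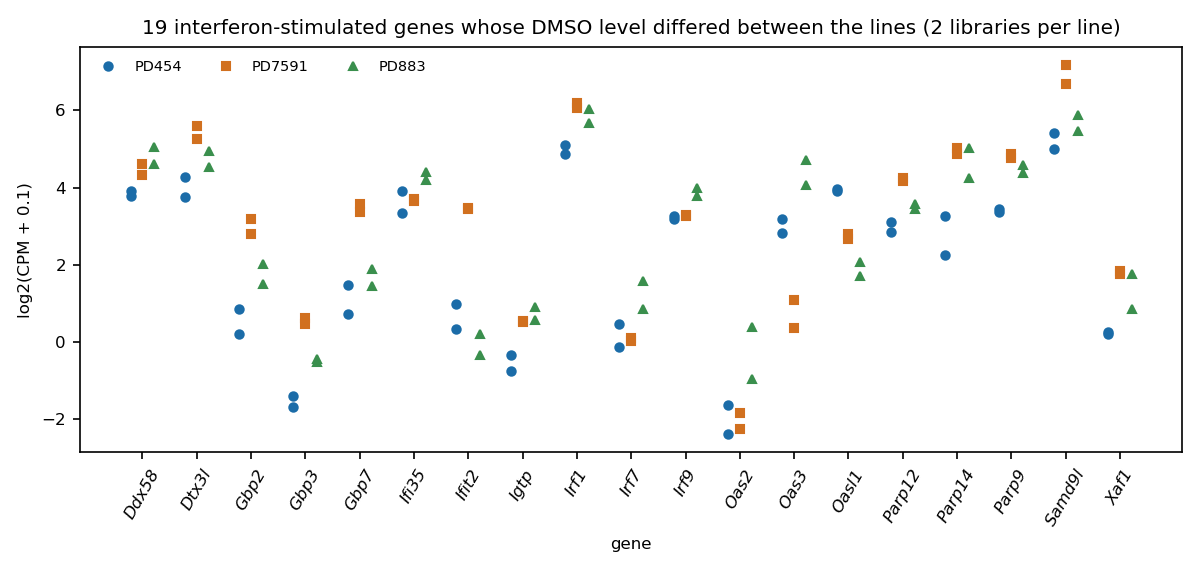
Level under DMSO, as log2(CPM + 0.1) on the vertical axis, of the 19 members whose level differed between the lines, with 1 point per library and 2 libraries per line. PD454 has the lowest mean in 14 of the 19 members, and PD7591 the highest in 11.

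Beside the members, 72 other genes of the pathway were listed, of which 52 were tested. With ionomycin 8 rose and 7 fell, or 28.8% against 33.3% of all tested genes. With TGFb 5 rose and 21 fell, or 50% against 50.7% of all tested genes, so both totals are near the background. With TGFb 24.3% of all tested genes rose and 26.5% fell. The medians of their log2 fold changes were -0.10 with ionomycin and -0.20 with TGFb.

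Of the 6 receptor genes, 3 fell and 1 rose with TGFb, too few to read against the 50.7% of all tested genes called. Ifngr1 and Ifngr2, the chains of the type II receptor, fell by 0.95 ± 0.10 and 0.93 ± 0.13 (edgeR adjusted p = 1.74e-07 and 1.22e-05). The effect on Ifngr2 differed between the lines (edgeR adjusted p = 0.0179), with log2 fold changes of -0.41 ± 0.15 in PD454, -0.92 ± 0.15 in PD7591 and -1.49 ± 0.15 in PD883. Ifnlr1, a chain of the type III receptor, fell by 1.06 ± 0.18 with TGFb (edgeR adjusted p = 5.65e-05) and had a log2 fold change of 0.60 ± 0.17 with ionomycin (edgeR adjusted p = 0.0112). Without PD883 the ionomycin call of Ifnlr1 was lost (0.0587). Ifnar1 of the type I receptor had a mean of 76.8 ± 15.1 CPM (SD of 3 line means) under the vehicle and of 110 ± 22.5 CPM under TGFb, with a log2 fold change of 0.52 ± 0.11 (edgeR adjusted p = 0.000565). With ionomycin its log2 fold change was -0.04 ± 0.11, which did not pass.

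Of the 10 kinases, STATs and inhibitors, 3 rose and 1 fell with ionomycin, and 2 rose and 2 fell with TGFb. That is 40% in each comparison, against 33.3% and 50.7% of all tested genes. Socs3, an inhibitor of JAK signalling, rose with both, by 0.66 ± 0.14 with ionomycin and by 0.50 ± 0.14 with TGFb (edgeR adjusted p = 0.00128 and 0.00503). The TGFb call of Socs3 was lost without PD454 (0.0946) or PD883 (0.0529). Jak1 fell by 0.31 ± 0.09 with ionomycin (edgeR adjusted p = 0.0156), a call lost without PD7591 (0.27), DMSO PD454 13 (0.0575), DMSO PD7591 2 (0.0516) or ionomycin PD7591 4 (0.0538). Ptpn2, a phosphatase that acts on JAK kinases, rose by 0.24 ± 0.10 with TGFb (edgeR adjusted p = 0.0486), a call lost without each line (adjusted p of 0.0852 to 0.173) and without any of 7 libraries. These were DMSO PD454 13 (0.0790), DMSO PD7591 2 (0.0655), DMSO PD883 7 (0.0985), TGFb PD454 18 (0.0591), TGFb PD7591 5 (0.0552), TGFb PD7591 6 (0.0750) and TGFb PD883 12 (0.0756). Tyk2 fell by 0.32 ± 0.10 with TGFb (edgeR adjusted p = 0.00997), which was lost without PD7591 (0.0572) or PD883 (0.0752). With ionomycin Stat3 rose by 0.34 ± 0.10 (edgeR adjusted p = 0.0103), lost without PD454 (0.119). Socs1 did not pass in either comparison, with log2 fold changes of 0.40 ± 0.27 and -0.09 ± 0.27.

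Of the 13 tested genes of nucleic acid sensing, 7 fell and none rose with TGFb, and 2 rose and 3 fell with ionomycin. The shares called, 53.8% and 38.5%, stand beside 50.7% and 33.3% of all tested genes. By direction, 26.5% of all tested genes fell and 24.3% rose with TGFb, and 17.2% rose and 16.1% fell with ionomycin. Ticam1, an adaptor of a receptor for double-stranded RNA, fell by 0.60 ± 0.11 with TGFb (edgeR adjusted p = 0.000186). With ionomycin Samhd1, which breaks down nucleotides, fell by 0.86 ± 0.12 (edgeR adjusted p = 2.97e-05), and the DNA exonuclease gene Trex1 by 0.67 ± 0.18 (edgeR adjusted p = 0.00841). Mavs, the adaptor of the RNA sensors, had a mean of 41.7 ± 1.16 CPM (SD of 3 line means) under the vehicle and of 62.3 ± 3.06 CPM under ionomycin, with a log2 fold change of 0.58 ± 0.09 (edgeR adjusted p = 8.12e-05). Adar, an RNA editing enzyme, rose by 0.26 ± 0.09 (edgeR adjusted p = 0.0312) in a call lost without any of 5 libraries, DMSO PD454 14 (0.0714), DMSO PD883 8 (0.0922), ionomycin PD454 15 and 16 (0.0529 and 0.0661) and ionomycin PD883 10 (0.0875), and without PD454 or PD883 (0.183 and 0.192). The Trex1 call was lost without PD454 or PD883 (0.109 each).

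Of the 23 tested genes in the list of other interferon-induced genes, 9 fell and 2 rose with TGFb, and 2 rose and 3 fell with ionomycin. The shares called, 47.8% and 21.7%, were below the 50.7% and 33.3% of all tested genes. By direction, all tested genes fell in 26.5% and rose in 24.3% with TGFb, and rose in 17.2% and fell in 16.1% with ionomycin. Slfn2, of the Schlafen family, fell by 1.68 ± 0.18 with TGFb (edgeR adjusted p = 2.21e-07), and Lgals3bp, a secreted glycoprotein, by 1.09 ± 0.14 (edgeR adjusted p = 2.72e-06). Ifitm2, which hinders virus entry, rose by 1.11 ± 0.22 with TGFb (edgeR adjusted p = 0.000311), and Parp11 by 0.46 ± 0.11 (edgeR adjusted p = 0.00182). With ionomycin Ube2l6, the conjugating enzyme for Isg15, rose by 0.87 ± 0.20 (edgeR adjusted p = 0.00261), and Lgals3bp by 0.46 ± 0.14 (edgeR adjusted p = 0.0152), the last lost without PD7591 (0.293). Trim21 fell by 1.11 ± 0.26 and Gbp9 by 1.80 ± 0.50 (edgeR adjusted p = 0.00316 and 0.00946), calls that were lost without PD883 (0.0522) and without PD7591 (0.157). With the libraries of each group summed to 1 sample, the ionomycin calls of Ifnlr1, Jak1, Stat3, Adar, Trex1, Trim21 and Lgals3bp were also lost (edgeR adjusted p of 0.0583 to 0.19), as were the TGFb calls of Socs3, Tyk2, Ptpn2 and Parp11 (edgeR adjusted p of 0.0580 to 0.214).

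The share of Rn45s, a ribosomal RNA gene, was 0.283% to 2.26% of the counts in DMSO libraries, 0.304% to 4.11% in ionomycin libraries and 0.256% to 1.04% in TGFb libraries. Markers of other cell types were measured alongside, and in bulk RNA fewer cells of a type and less RNA per cell cannot be told apart. Of 9 immune markers, 4 were tested. Their summed level was 3.62 to 6.39 CPM in DMSO libraries, 9.36 to 30.2 CPM in ionomycin libraries and 4.13 to 6.31 CPM in TGFb libraries. The lysosomal gene Cd68 alone had a mean of 3.39 CPM with DMSO and of 14.1 CPM with ionomycin. The defining markers Ptprc and Siglech had at most 19 and 0 counts in the 6 libraries of any treatment. Over the 3 lines Cd68 alone of the 4 tested was called with ionomycin, and it rose. With TGFb Flt3 and Cd3e were called, 1 higher and 1 lower, and Flt3 was called higher within each line. Within single lines, Flt3 was also called higher with ionomycin in PD7591, and Csf1r with TGFb in PD883. Of 7 fibroblast markers, 2 rose with TGFb (Col1a1 and Pdgfrb), the summed level being 2.40 to 6.10 CPM with DMSO and 7.50 to 101 with TGFb, and Lum stayed at 7 or fewer counts per treatment. Of 5 endothelial markers 2 were tested, and both rose with ionomycin, Cdh5 from a mean of 0.150 to 0.772 CPM and Pecam1 from 0.172 to 0.435 CPM. Of 5 acinar markers Cela1 alone was tested, and it rose with TGFb, from 0.520 to 3.66 CPM. The 9 ductal epithelial markers summed to 3994 to 9703 CPM in every library, so the labelled epithelial type was present, but Epcam had no more than 4.30 CPM in any library. With TGFb 4 of the 9 fell (Krt19, Cdh1, Muc1 and Epcam) and 3 rose (Krt18, Sox9 and Cldn4). In the mean Krt19 went from 984 to 18.1 CPM and Cdh1 from 608 to 67.4 CPM, while Sox9 went from 25.2 to 103 CPM and Cldn4 from 0.0941 to 60.2 CPM. With ionomycin 3 of the 9 rose (Muc1, Cldn4 and Krt18). The part of these markers in the results above was not tested.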

How the data were processed

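Bulk RNA-seq libraries of 3 mouse pancreatic cancer lines were compared, 18 in 9 groups taken from the sample labels. The values are raw counts per gene symbol, deposited by the authors in 1 table, and no normalization was applied to them. Per the submitters' processing notes the tools were CASAVA, Trimmomatic 0.32, STAR and featureCounts on mm10. Neither the strand setting nor the annotation release is given in the sources used here. Of 24527 rows, 5059 were 0 in every library and 26 names had been turned into dates.

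Counts were scaled with trimmed mean of M-values (TMM) factors, filtered with filterByExpr over the 9 groups and fitted with edgeR 4.0.16 (R 4.3.3), by robust quasi-likelihood F tests with Benjamini-Hochberg adjustment over 13827 genes at 0.05. Effects over the 3 lines came from a model of treatment plus line. Effects within lines, their difference between lines and the DMSO levels came from a mean per group, where the spread of all duplicates is shared. A standard error is the size of the log2 fold change divided by the root of F. CPM uses TMM-scaled library sizes. Count ratios have 95% exact intervals and limits for a count of 0 use 3 counts, and both cover counting error only. The test scripts were tested on simulated counts. Duplicates of every group differed by more than counting noise (chi-square per degree of freedom 4.79 to 86.8).

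Alternatives were other scaling factors, no filter, DESeq2 1.42.0, limma 3.58.1 with voom, each library or line left out, the 4 libraries rich in short transcripts left out, duplicates summed, another model, fewer libraries and a fold threshold. The members and lists were chosen with earlier results of these data known. Named with values are the members called with either treatment or for a difference between lines, the most abundant of each role, and up to 2 rising and 2 falling genes of each related list, with Ifnar1, Ifnb1, Socs1 and Socs3 in any case; Ifnlr1 with TGFb was added after its values were seen. Promoters and motif shares come from RefSeq (GRCm38.p6), gene positions from GRCm38 annotation. Some genes that the rule covers are not reported here.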

Additional observations from a re-analysis of the deposited data

Results flagged for a closer look

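For 6 interferon-stimulated genes the TGFb effect differed between the 3 lines in a joint test of the difference itself (edgeR, adjusted over all tested genes, 5.26% of which passed). Irgm1 had the smallest adjusted p, 0.00178, with a log2 fold change of -0.60 ± 0.17 in PD7591 and of 1.18 ± 0.17 in PD883, both called, so its direction was opposite in these lines. Gbp2 (0.00911), Parp9 (0.0182), Gbp7 (0.0262) and Parp12 (0.0272) were each called lower in PD7591 and not called in PD454 or PD883. Ifih1 (0.0120) was called lower in PD7591 and PD883, and in PD454 its log2 fold change was -0.53 ± 0.26, which did not pass. Of the 6, the call of Irgm1 was kept in every alternative run.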

How the results depend on the processing

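Single libraries could not be paired between groups, because the groups share no library numbers. The line was a term in the model of the effects over the 3 lines. Counts of called members changed as follows, and the cause was not tested. Summed duplicates leave 1 sample a group, and a fold threshold can only remove calls. With a mean per group, 41.1% of all tested genes were called with ionomycin and 55.9% with TGFb, in place of 33.3% and 50.7%. With ionomycin against DMSO, the 4 higher members became 1 without PD454, 1 with duplicates summed and 1 with a log2 fold change of at least 1, and the 10 lower became 16 with a mean per group. The 1 member higher with TGFb became 3 without PD7591 and 2 with a mean per group. With ionomycin against TGFb, the 16 higher became 10 without PD7591 and 10 with the fold threshold, and the 7 lower became 4 without PD454, 4 without PD883 and 4 with duplicates summed. For a difference of the ionomycin effect between lines, the 0 called became 1 with library totals, 3 with no filter, 1 with DESeq2 and 5 with the 4 short-rich libraries left out. For TGFb the 6 became 11 with no filter and 10 with DESeq2.

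Leaving out each library in turn gave 3 to 5 higher and 10 to 12 lower with ionomycin, and 1 higher and 14 to 20 lower with TGFb. With ionomycin against TGFb it gave 13 to 17 higher and 7 to 8 lower. Leaving out a library left 26.7% to 34.7%, 45.5% to 52.3% and 58.6% to 63.0% of all tested genes called in these comparisons, in that order. Within PD454, PD7591 and PD883 it gave 2 to 12, 6 to 12 and 11 to 19 called with ionomycin, and 4 to 9, 14 to 23 and 12 to 16 with TGFb, a group left with 1 library being assumed to vary like the others. It gave 0 to 1 and 2 to 9 for the difference of the ionomycin and TGFb effects between lines, and 15 to 21 for the DMSO levels. The 1 for ionomycin came without DMSO PD454 13, DMSO PD883 8, ionomycin PD883 10 or TGFb PD883 11 or 12.

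Signs reversed in values that were not called, and in 1 direct comparison. For ionomycin, Ifnar1 (-0.04) was 0.059 without PD883 and -0.12 to 0.026 over single libraries left out, the highest without DMSO PD883 7. For TGFb, Socs1 (-0.09) was 0.14 without the 4 libraries, 0.18 without PD883 and -0.22 to 0.22 over single libraries left out. Socs3 with ionomycin against TGFb was -0.039 without PD7591.

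Over all genes the 4599 called with ionomycin became 1840 with duplicates summed and 1350 with the fold threshold, and the 7015 with TGFb became 4581 and 2936. The 8696 of the direct comparison became 3824 with the fold threshold. Differences between lines went from 358 to 1050 with no filter, 1284 with DESeq2 and 1473 with the 4 libraries left out for ionomycin, and from 727 to 1391 and 1486 with no filter and DESeq2 for TGFb. Library totals moved the median log2 fold change of all genes to -0.117 with ionomycin and -0.108 in the direct comparison. The split of higher to lower then became 1936 to 2995 with ionomycin, from 2372 to 2227, and 3930 to 4870 in the direct comparison, from 4287 to 4409. Within PD454 it became 1381 to 1681 with ionomycin, from 1618 to 1291. With duplicates summed 6 ionomycin calls and 5 TGFb calls of members were lost. Members with few counts, such as Oas1a, Oas2, Rsad2, Ifit1 and Isg15, are limited by depth.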
